A study of Mus musculus with 9 samples.

Results

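The inhibitory receptors of exhausted T cells were taken as 8 genes chosen by name: Pdcd1, Ctla4, Lag3, Havcr2, Tigit, Cd160, Btla and Entpd1. They were 8 of the 22136 genes measured, and the level of each was the sum of the estimated read counts of its annotated transcripts. The 9 RNA-seq libraries came from CD45+ cells sorted from tumours grown under the skin of immunocompetent C57BL/6J mice from YUMM 2.1, a cultured mouse melanoma line. Of these, 3 libraries came from anti-B7-H3 treatment, 3 from anti-PD1 treatment and 3 from treatment with an IgG isotype control, each begun once tumours had reached 20 to 50 mm3. Every group thus shared the tumour line, the host strain and the sort, and differed in the antibody given. B7-H3 is an inhibitory ligand of the B7 family, and PD-1 is the protein product of Pdcd1. No age or antibody dose was given in the sources used here, and mice given both antibodies were not analysed here. The labels number the replicates but do not say that they came from separate mice, so the p-values measure the spread between these libraries, which may be partly technical.

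T cells that meet antigen for a long time, as in a tumour, acquire several inhibitory receptors at once, a state called exhaustion. Most of these receptors sit in the plasma membrane, bind ligands on antigen-presenting or tumour cells, and recruit phosphatases or compete with activating receptors so that signals from the T cell receptor and CD28 are dampened. None of the genes is used only by exhausted CD8 T cells: Ctla4 and Tigit are also known from regulatory T cells, Cd160 from NK cells, Havcr2 and Entpd1 from myeloid cells and Btla from B cells.

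Library depth lay between 14487012 and 31533106 estimated counts, and all 8 receptors were among the 13178 genes that passed the filter on low counts. Counts per receptor and library ran from 89 for Havcr2 in IgG 2 to 15511 for Ctla4 in anti-PD1 3. Ptprc, which encodes CD45, was at 1719 to 2348 CPM (counts per 1000000, scaled by TMM factors) in anti-B7-H3 libraries, 1821 to 2411 in anti-PD1 libraries and 1871 to 2913 in IgG libraries. The melanoma markers Mlana, Pmel, Dct, Tyrp1 and Sox10 summed to at most 11.4 CPM in any library, and Dct was at 0 in all 9. A pair of libraries, numbered as in the labels, stood apart. IgG 2 lay far from the rest on the first principal component and had 1896 of the tested genes at 0, anti-PD1 3 lay apart on the second and had 1248 at 0, and the other 7 libraries had 224 to 822. Results that rest on these libraries are given with and without them.

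The receptor genes lie on 6 chromosomes (GRCm38, GENCODE M21 annotation). Pdcd1 is at chr1:94038305-94052553 on the minus strand, and Ctla4 at chr1:60887000-60915832 on the plus strand, between the activating receptor genes Cd28 (chr1:60716800-60773359) and Icos (chr1:60977927-61000320) on the same strand. Lag3 is at chr6:124904361-124911705 (minus), Havcr2 at chr11:46454935-46481255 (plus) and Cd160 at chr3:96798763-96829351 (minus). Tigit (chr16:43648867-43664146, minus) and Btla (chr16:45224315-45257670, plus) share a chromosome, and Entpd1 is at chr19:40612366-40741602 (plus). One end of the Cd160 gene overlaps Pdzk1 on the opposite strand. The libraries do not mark strand, so reads from the shared stretch cannot be told apart. Annotated pseudogenes lie within Ctla4 and Entpd1. The transcript models held coding lengths for the most part, since 87.3% of them were multiples of 3.

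For Ctla4 and Btla, the annotation holds transcripts that differ by a stretch of coding sequence, and the deposited estimated counts are split between them. The stretches are shown because the counts divide at them. In Ctla4, the transcript Ctla4-202 lacks exon 3, 110 bases at chr1:60913219-60913328 on the plus strand. That exon is known to encode the membrane-spanning part of the protein, and the form without it is known as soluble CTLA-4. In Btla, the transcript Btla-202 lacks 3 bases at chr16:45244153-45244155. In each line the stretch present in one transcript and absent from the other is in capitals, with 15 bases of the mature transcript on each side in lower case, from the GENCODE M21 coding transcripts.
Ctla4-201: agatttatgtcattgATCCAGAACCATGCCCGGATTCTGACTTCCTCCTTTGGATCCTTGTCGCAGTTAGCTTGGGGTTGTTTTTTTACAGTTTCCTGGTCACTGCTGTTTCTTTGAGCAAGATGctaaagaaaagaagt
Ctla4-202: agatttatgtcattgctaaagaaaagaagt
Btla-201: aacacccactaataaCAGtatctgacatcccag
Btla-202: aacacccactaataatatctgacatcccag

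Per length, Ctla4 was the most abundant of the receptors in the sorted cells, with a mean of 342 TPM (transcripts per 1000000, as deposited) over the 9 libraries. Pdcd1 followed at 104 TPM, Tigit at 97.3 and Cd160 at 77.1. The other 4 were lower, with Entpd1 at 26.2 TPM, Havcr2 at 13.5, Btla at 11.1 and Lag3, a receptor for MHC class II, at 7.23. Ctla4 exceeded Pdcd1 in 9 of 9 libraries and Entpd1 exceeded Havcr2 in 9 of 9. The order was less settled in the middle and at the low end: Pdcd1 exceeded Tigit in 6 of 9 libraries, Tigit exceeded Cd160 in 6 and Havcr2 exceeded Btla in 5. Between each gene and the next in this order, the ranges over the 9 libraries overlapped.

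**Figure D1:**
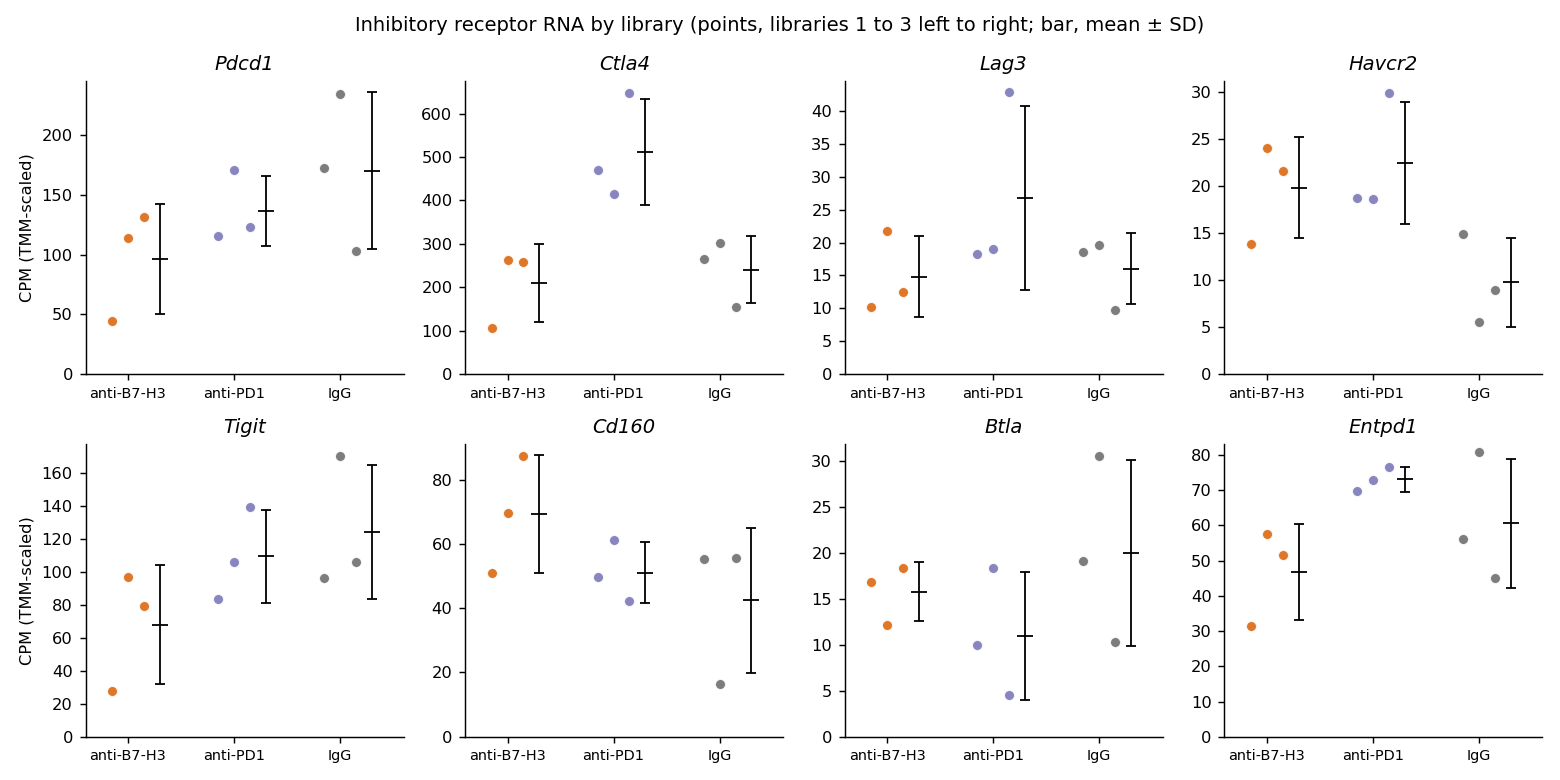
TMM-scaled CPM of each receptor in each library (points), with the mean and SD of each group of 3 libraries beside them. All 3 anti-PD1 libraries lie above the other 6 for Ctla4, and the IgG libraries lie below every anti-PD1 library for Havcr2.

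The comparison of anti-PD1 with IgG asks whether receptor RNA differed when the PD-1 pathway was blocked. Ctla4, which competes with CD28 for CD80 and CD86, was at 469.8, 414 and 648 CPM in anti-PD1 libraries, against 264, 303 and 155 CPM in IgG libraries. Every anti-PD1 library was above every IgG library, and the means were 511 ± 122 and 241 ± 76.9 CPM (SD, n = 3 each). The log2 fold change was 1.09 ± 0.36 (SE, 95% interval 0.29 to 1.88), with an adjusted p of 0.244 by edgeR's quasi-likelihood test with Benjamini-Hochberg adjustment over all genes tested. Havcr2, which encodes TIM-3, was at 18.8, 18.6 and 29.9 CPM in anti-PD1 libraries, against 14.9, 5.51 and 8.92 CPM in IgG libraries. Here too every anti-PD1 library was above every IgG library, although IgG 1 was not far below the lowest of them. Its log2 fold change was 1.20 ± 0.42 (95% interval 0.27 to 2.13; edgeR adjusted p = 0.290). Without the libraries that stood apart, it was 0.65 for Havcr2 and 1.08 for Ctla4.

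None of the 8 receptors passed an adjusted p of 0.05 in this comparison by edgeR, against 1.74% of all 13178 genes tested, and 2 of 8 had an unadjusted p under 0.05, against 10.9% of all genes. Being higher in every anti-PD1 library than in every IgG library was seen for 2 of 8 receptors and for 9.99% of all genes. DESeq2 called 1 receptor, Ctla4, with a log2 fold change of 1.12 and an adjusted p of 0.0480, and limma-voom called 0, against 5.26% and 1.37% of all genes with an adjusted p by these tools. Over 20 alternative settings the adjusted p of Ctla4 lay between 0.0480 and 0.522, and its log2 fold change was positive in all of them. The median log2 fold change over the 8 receptors was 0.27, beside -0.04 over all genes tested, and 5 of 8 were positive. In a bulk sample of sorted cells, a lower share of cells of a type and less RNA per cell cannot be told apart, for this and every other receptor value given here.

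The target of the antibody, Pdcd1, was at 116, 171 and 123 CPM in anti-PD1 libraries, against 173, 234 and 103 CPM in IgG libraries. The groups overlapped, with the highest value in IgG 2 and the lowest in IgG 3, and the log2 fold change was -0.32 (95% interval -1.19 to 0.56; edgeR adjusted p = 0.837). It was 0.0084 without IgG 2 and 0.052 without both libraries that stood apart, so its direction rested on IgG 2. Lag3 was at 18.3, 19.0 and 42.9 CPM in anti-PD1 libraries, against 18.5, 19.7 and 9.81 CPM in IgG libraries. A single library, anti-PD1 3, was far above the rest, and the other 2 anti-PD1 libraries lay within the IgG range. Its log2 fold change of 0.74 (adjusted p = 0.622 by edgeR) became 0.22 without that library. For Tigit, which binds the poliovirus receptor and competes with CD226, the groups overlapped at 83.4, 106 and 139 CPM in anti-PD1 libraries and 96.2, 171 and 106 CPM in IgG libraries. The log2 fold change of Tigit was -0.18, and 0.15 without IgG 2.

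The receptors of HVEM (the product of Tnfrsf14), Cd160 and Btla, also overlapped between these groups. Cd160 was at 49.8, 61.1 and 42.2 CPM in anti-PD1 libraries, against 55.2, 16.4 and 55.5 CPM in IgG libraries, where IgG 2 was far below the others. The log2 fold change of Cd160 was 0.27, and -0.091 without IgG 2. Btla was at 9.96, 18.3 and 4.55 CPM in anti-PD1 libraries, against 19.1, 30.5 and 10.3 CPM in IgG libraries. Its log2 fold change was -0.87 (95% interval -2.04 to 0.30; edgeR adjusted p = 0.620), and -0.06 without the libraries that stood apart, which held its lowest and highest values. Entpd1 encodes CD39, an enzyme on the cell surface that breaks down extracellular ATP on the path to adenosine, rather than a receptor. It was at 69.6, 72.7 and 76.6 CPM in anti-PD1 libraries, the narrowest range of any receptor in any group relative to its mean, against 56.0, 80.7 and 45.0 CPM in IgG libraries.

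**Figure D2:**
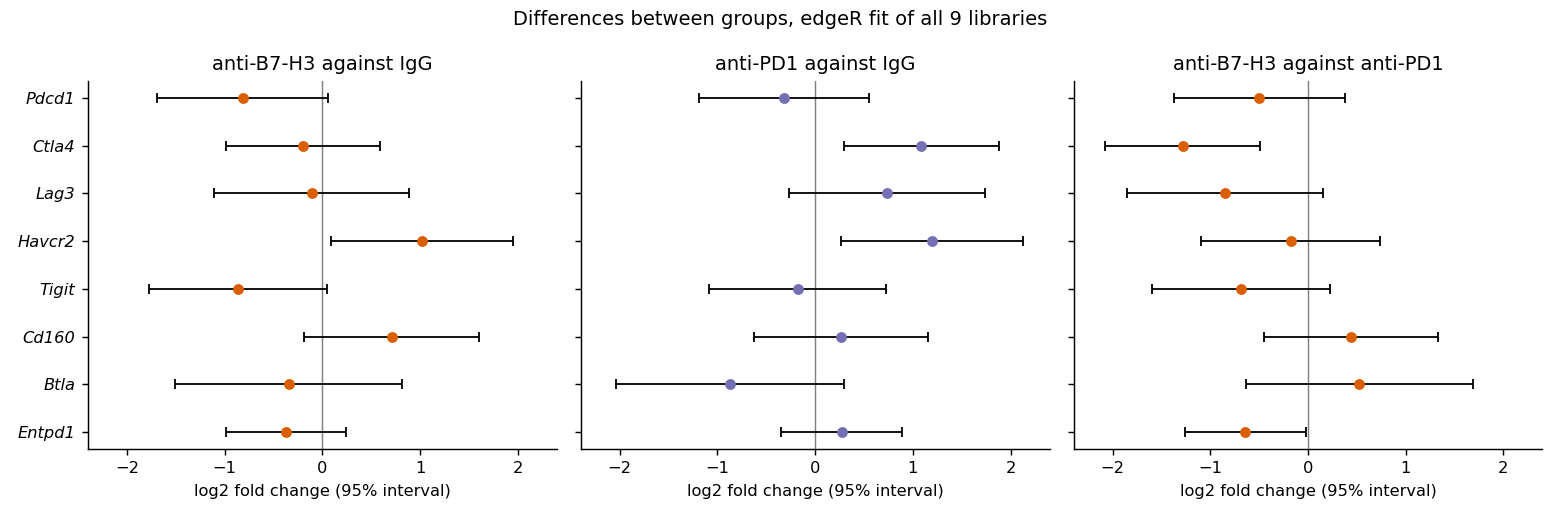
Log2 fold change of each receptor (points) with its 95% interval (bars) in the 3 comparisons, from edgeR fitted to all 9 libraries. The intervals leave out 0 for Havcr2 in anti-B7-H3 against IgG, for Ctla4 and Havcr2 in anti-PD1 against IgG, and for Ctla4 and Entpd1 in anti-B7-H3 against anti-PD1.

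Anti-B7-H3 was compared with the same IgG libraries, so the comparisons share their controls. Havcr2 was at 13.8, 24.1 and 21.6 CPM in anti-B7-H3 libraries, against 14.9, 5.51 and 8.92 CPM in IgG libraries. The groups overlapped through anti-B7-H3 1 and IgG 1, and the other anti-B7-H3 libraries were above all IgG libraries. The log2 fold change was 1.02 ± 0.42 (SE, 95% interval 0.09 to 1.95), with an adjusted p of 0.510 by edgeR, and it was 0.74 without the libraries that stood apart. Pdcd1 was at 44.5, 114 and 131 CPM in anti-B7-H3 libraries, against 173, 234 and 103 CPM in IgG libraries. Tigit was at 27.8, 97.1 and 79.1 CPM in anti-B7-H3 libraries, against 96.2, 171 and 106 CPM in IgG libraries. For both genes anti-B7-H3 1 was far below all other libraries, and the groups overlapped among the rest. The log2 fold change was -0.81 (95% interval -1.69 to 0.06) for Pdcd1 and -0.87 (95% interval -1.78 to 0.04) for Tigit, with adjusted p = 0.607 and 0.594 by edgeR. Without anti-B7-H3 1 and IgG 2, they were -0.17 and -0.20.

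Ctla4 was at 107, 263 and 259 CPM in anti-B7-H3 libraries, inside and below the IgG range of 155 to 303 CPM. Its log2 fold change was -0.20 (95% interval -0.98 to 0.59; edgeR adjusted p = 0.937), and 0.32 without anti-B7-H3 1 and IgG 2. Cd160 was at 50.9, 69.5 and 87.5 CPM in anti-B7-H3 libraries, of which anti-B7-H3 2 and 3 were above every IgG library. Its log2 fold change was 0.71 (95% interval -0.19 to 1.61; edgeR adjusted p = 0.699), and 0.32 without the libraries that stood apart. Lag3 at 10.2 to 21.8 CPM, Btla at 12.2 to 18.3 CPM and Entpd1 at 31.3 to 57.4 CPM in anti-B7-H3 libraries overlapped with IgG libraries, and their intervals ran from -1.11 to 0.89, from -1.50 to 0.82 and from -0.99 to 0.25. The log2 fold changes of Lag3 and Btla, -0.11 and -0.34, were 0.084 and 0.11 without IgG 2.

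By edgeR, 0 of 8 receptors passed an adjusted p of 0.05 in anti-B7-H3 against IgG, against 0.850% of all genes tested, and 1 of 8 had an unadjusted p under 0.05, against 8.81% of all genes. DESeq2 and limma-voom called 0 as well, against 3.07% and 0.653% of all genes. No receptor had groups that did not overlap, which 15.5% of all genes had. The median log2 fold change over the 8 receptors was -0.27, beside 0.02 over all genes tested, and 2 of 8 values were positive.

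The antibodies were also compared directly, which involves the IgG libraries only in the filter on low counts, the scaling and the shared estimate of the spread. Ctla4 was at 107, 263 and 259 CPM in anti-B7-H3 libraries, against 469.8, 414 and 648 CPM in anti-PD1 libraries. Every anti-B7-H3 library was below every anti-PD1 library, and the means were 209.6 ± 89.2 and 511 ± 122 CPM (SD, n = 3 each). The log2 fold change was -1.28 ± 0.36 (SE, 95% interval -2.08 to -0.49), with an adjusted p of 1.00 by edgeR, and it was -0.97 without anti-B7-H3 1. Entpd1 was at 31.3, 57.4 and 51.6 CPM in anti-B7-H3 libraries, against 69.6, 72.7 and 76.6 CPM in anti-PD1 libraries. Here also the groups did not overlap, with a log2 fold change of -0.64 ± 0.28 (SE, 95% interval -1.26 to -0.02; edgeR adjusted p = 1.00).

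For the other 6 receptors, anti-B7-H3 and anti-PD1 libraries overlapped. Lag3 had a log2 fold change of -0.85 (95% interval -1.85 to 0.15), which was -0.33 without anti-PD1 3, and Tigit one of -0.69 (95% interval -1.59 to 0.22). Those of Pdcd1, Havcr2, Cd160 and Btla were -0.50, -0.18, 0.44 and 0.53, with intervals that included 0. By edgeR 0 of 8 receptors and 0% of all genes passed an adjusted p of 0.05, 2 of 8 receptors and 3.23% of genes had an unadjusted p under 0.05, and DESeq2 and limma-voom called 0 receptors, against 0.107% and 0.0152% of all genes. Being lower in every anti-B7-H3 library than in every anti-PD1 library was seen for 2 of 8 receptors and for 6.40% of all genes. The median over the 8 receptors was -0.57, beside 0.04 over all genes tested, and 2 of 8 were positive. Asked whether a receptor differed among the 3 groups at all, edgeR called 0 of 8, against 1.05% of all genes, and DESeq2 called 1 of 8, against 4.18% of all genes. The smallest edgeR p was that of Ctla4, at 0.00724 (adjusted p = 0.251), and its pattern of every anti-PD1 library above the 6 others was seen in 2.87% of all genes.

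Across libraries, the receptors did not vary as 1 block. The ratio of the highest to the lowest library ran from 2.58 for Entpd1 to 6.70 for Btla. Anti-B7-H3 1 was the lowest library for 4 receptors, Pdcd1, Ctla4, Tigit and Entpd1. IgG 2 was the highest for 4, Pdcd1, Tigit, Btla and Entpd1, and the lowest for Havcr2 and Cd160. Anti-PD1 3 was the highest for Ctla4, Lag3 and Havcr2 and the lowest for Btla. Measured as the mean absolute difference of centred log2 CPM over the 9 libraries, the receptors most alike were Pdcd1 and Tigit, at 0.283, and those least alike were Ctla4 and Btla, at 0.941. Entpd1 was closer to Tigit (0.311), Pdcd1 (0.325), Lag3 (0.327) and Ctla4 (0.340) than to Havcr2 (0.557), Cd160 (0.679) or Btla (0.658). A gene with no variation would lie at 0.328 from Entpd1, so even its closest receptors were about as far as a flat profile.

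The RNA of other cell types moved across the same libraries. The 5 regulatory T cell markers Foxp3, Ikzf2, Il2ra, Ikzf4 and Ccr8 summed to 217 to 727 CPM in anti-B7-H3 libraries, 850.0 to 1340.2 in anti-PD1 libraries and 608 to 1453 in IgG libraries. Their lowest sum was in anti-B7-H3 1 and their highest in IgG 2, the lowest and highest libraries for Pdcd1, Tigit and Entpd1. The 7 NK cell markers summed to 1862 to 2333 CPM in anti-B7-H3 libraries, 1369 to 1883 in anti-PD1 libraries and 434 to 1618 in IgG libraries, with the lowest sum in IgG 2, the library with the least Cd160. None of the regulatory T cell or NK cell markers passed the edgeR test in any comparison. At an unadjusted p under 0.05, 1 of 5 regulatory T cell markers and 3 of 7 NK cell markers passed in anti-B7-H3 against IgG, 0 and 0 in anti-PD1 against IgG, and 1 and 0 in anti-B7-H3 against anti-PD1. Of all genes tested, 8.81%, 10.9% and 3.23% had such a p in these comparisons. Between the antibodies, 4 of 5 regulatory T cell markers were lower in every anti-B7-H3 library than in every anti-PD1 library. The same was seen for 0 of 7 NK cell markers and for 6.40% of all genes. In that comparison the median log2 fold change of the regulatory T cell markers was -0.9978. DESeq2 called 1 of the regulatory T cell and NK cell markers, Ikzf4, lower in anti-B7-H3 against IgG, and limma-voom called 0. There DESeq2 called 3.07% of all genes with an adjusted p.

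The 9 macrophage markers summed to 1550.1 to 2355 CPM in anti-B7-H3 libraries and 1143 to 1671 in anti-PD1 libraries, against 91.2 to 267 in IgG libraries. Of these markers 7 of 9 were called higher by edgeR in anti-B7-H3 against IgG and 7 of 9 in anti-PD1 against IgG. In the same comparisons limma-voom called 3 and 5. Of all genes tested, edgeR called 0.850% and 1.74% in these comparisons, and limma-voom called 0.653% and 1.37%. The lowest macrophage sum was in IgG 2, where Havcr2 was lowest. In that library Csf1r was at 0 and Lyz2 at 54.0 CPM, and C1qa and C1qc were above their values in IgG 1. The 5 neutrophil markers summed to 212 to 404 CPM in anti-B7-H3 libraries and 583 to 863 in anti-PD1 libraries, against 59.9 to 99.0 in IgG libraries. By edgeR 3 of 5 were called higher in anti-B7-H3 against IgG and 4 of 5 in anti-PD1 against IgG. Of all genes, 0.850% and 1.74% were called by edgeR there. Of the neutrophil markers 4 of 5 were lower in every anti-B7-H3 library than in every anti-PD1 library, against 6.40% of all genes. The 3 CD3 chains, which every T cell uses, summed to 1566 to 2513 CPM in anti-B7-H3 libraries, 1685 to 2043 in anti-PD1 libraries and 1867 to 3211 in IgG libraries. The CD8 T cell markers Cd8a and Cd8b1 summed to 375 to 796 CPM in anti-B7-H3 libraries, 193 to 345 in anti-PD1 libraries and 291 to 823 in IgG libraries, and 0 were called by edgeR, DESeq2 or limma-voom. The 6 B cell markers summed to 439 CPM in anti-B7-H3 1, against 25.5 to 123 CPM in the other 8 libraries. The part of these cell types in the receptor values was not tested.

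**Figure D3:**
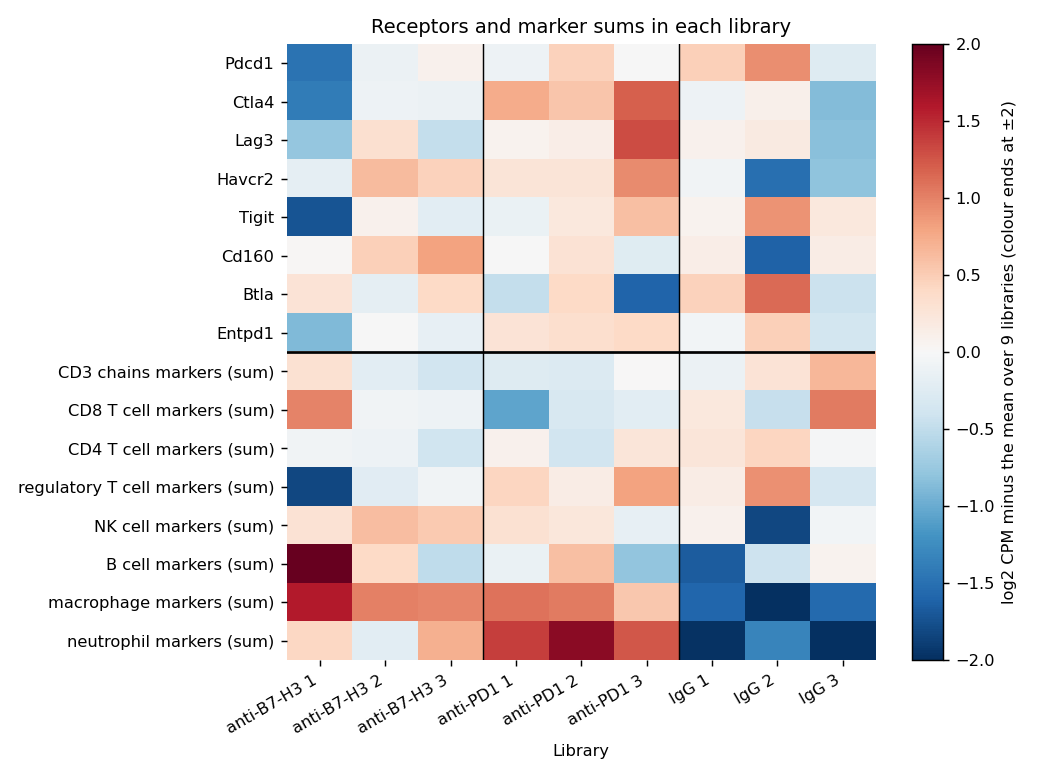
Log2 CPM of each receptor (upper rows) and of the summed markers of each cell type (lower rows), minus the mean over the 9 libraries, with libraries in columns. Anti-B7-H3 1 is low for Pdcd1, Ctla4, Tigit and the regulatory T cell markers, IgG 2 is low for Havcr2, Cd160 and the NK cell markers, and macrophage markers are lower in the 3 IgG libraries than in the other 6.

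The receptors were then set beside the CD3 RNA of the same library, as receptor CPM per 1000 CPM of Cd3d, Cd3e and Cd3g. Ctla4 was at 276, 246 and 317 on this scale in anti-PD1 libraries, against 141, 123 and 48.2 in IgG libraries. Every anti-PD1 library was higher, with a difference of 1.56 in log2 and an exact two-sided permutation p of 0.1, the smallest that 3 against 3 libraries allow (0.4 after Benjamini-Hochberg adjustment over 24 tests). The same held for Havcr2, Lag3 and Entpd1, with log2 differences of 1.72, 1.13 and 0.76 and the same exact p. Without IgG 3, which had the highest CD3 sum, the differences were 0.62 for Lag3 and 0.37 for Entpd1. Thus 4 of 8 receptors were higher per CD3 RNA in every anti-PD1 library, against 18.7% of all genes tested. In anti-B7-H3 against anti-PD1, Ctla4 and Entpd1 were lower per CD3 RNA in every library, with log2 differences of -1.45 and -0.77, and 5.14% of all genes did likewise. Without anti-B7-H3 1 these differences were -0.82 and -0.30. For anti-B7-H3 against IgG all 8 receptors overlapped on this scale, against 14.9% of all genes with groups that did not, with Ctla4 at 42.5, 150 and 165 in anti-B7-H3 libraries, against 141, 123 and 48.2 in IgG libraries.

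Ratios to the markers of other cell types were formed after the values had been seen, for 11 combinations of a receptor and a marker list. Not all of them are given here. Ctla4 per 1000 CPM of regulatory T cell markers was at 491, 401 and 356 in anti-B7-H3 libraries and at 453, 487 and 483 in anti-PD1 libraries, against 311, 209 and 254 in IgG libraries. All 6 antibody-treated libraries were above all 3 IgG libraries, and anti-B7-H3 overlapped with anti-PD1. The exact permutation p was 0.1 in each comparison with IgG (0.3 adjusted over 33 tests). Of all genes tested, 21.3% were higher in every anti-B7-H3 library and 5.22% in every anti-PD1 library than in every IgG library on this scale. Per 1000 CPM of the CD4 T cell markers Cd4 and Cd40lg, Ctla4 was at 412, 1037 and 1244 in anti-B7-H3 libraries. It was at 1628, 1974 and 2003 in anti-PD1 libraries, against 822, 828 and 578 in IgG libraries. There anti-B7-H3 overlapped with IgG (exact permutation p = 0.8), and every anti-PD1 library was above every other library. The share of all genes with that pattern was not counted. Pdcd1 per 1000 CPM of regulatory T cell markers was at 204, 174 and 180.2 in anti-B7-H3 libraries and at 111, 201 and 92.0 in anti-PD1 libraries, against 204, 161 and 170 in IgG libraries. Anti-B7-H3 1, the lowest library for Pdcd1 in CPM, was level with the highest on this scale, and anti-PD1 1 and 3 were below all others. Per 1000 CPM of CD8 T cell markers, Pdcd1 was at 55.9, 299 and 349.6 in anti-B7-H3 libraries and at 601, 529.5 and 357 in anti-PD1 libraries, against 373, 805 and 125 in IgG libraries, with anti-B7-H3 1 the lowest of all 9.

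Cd160 per 1000 CPM of NK cell markers was at 27.3, 29.8 and 40.0 in anti-B7-H3 libraries and at 26.4, 34.2 and 30.8 in anti-PD1 libraries, against 34.1, 37.8 and 37.9 in IgG libraries. IgG 2, the lowest library for Cd160 in CPM, was within the range of the other IgG libraries on this scale. Havcr2 per 1000 CPM of macrophage markers was at 5.86, 15.3 and 13.9 in anti-B7-H3 libraries and at 11.2, 11.5 and 26.2 in anti-PD1 libraries, against 56.6, 60.4 and 33.5 in IgG libraries. All antibody-treated libraries were below all IgG libraries on this scale, and 78.0% and 76.3% of all genes tested were lower in the same way in anti-B7-H3 against IgG and in anti-PD1 against IgG.

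**Figure D4:**
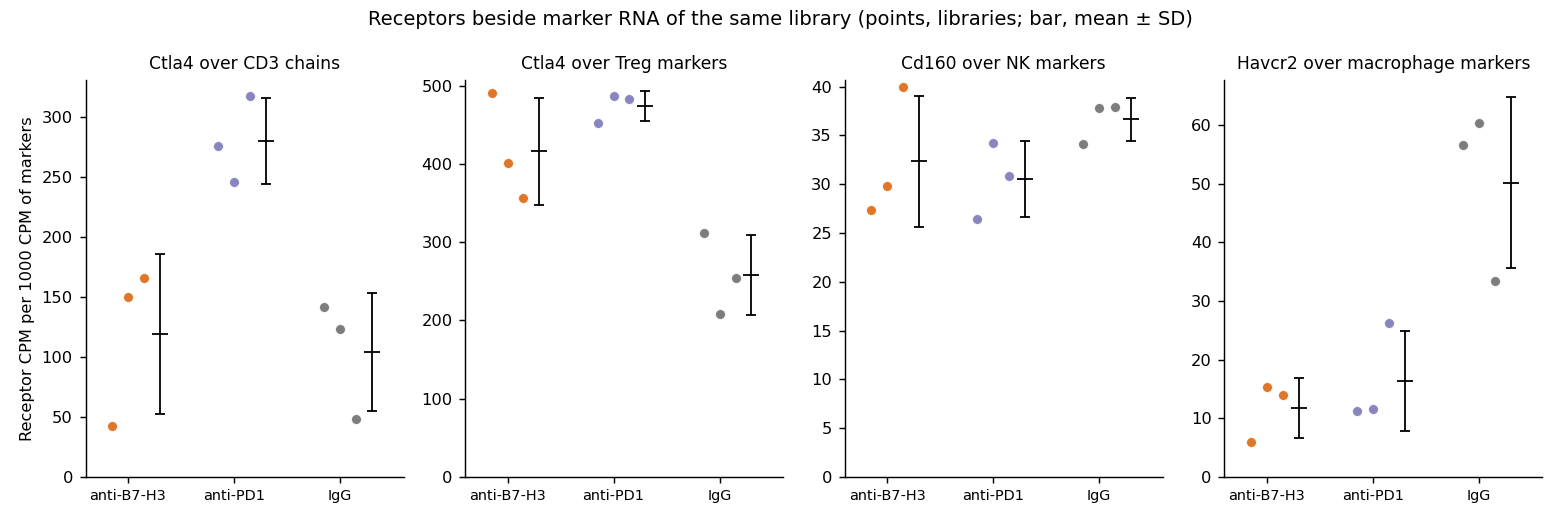
Receptor CPM per 1000 CPM of summed marker genes in each library (points), with mean and SD per group of 3 libraries. Ctla4 per CD3 RNA is highest in the 3 anti-PD1 libraries, Ctla4 per regulatory T cell marker RNA is lowest in the 3 IgG libraries, and Havcr2 per macrophage marker RNA is highest in the 3 IgG libraries.

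The make-up of receptor RNA was described as the share of each gene in the summed TPM of all 8, which does not depend on library scaling. Ctla4 made up 42.8 ± 3.05% in anti-B7-H3 libraries and 60.6 ± 6.27% in anti-PD1 libraries, against 40.6 ± 4.45% in IgG libraries (SD, n = 3 each). The 3 anti-PD1 shares, 62.9, 53.5 and 65.4%, were above those of all other libraries. Pdcd1 made up 13.8 ± 1.80% in anti-B7-H3 libraries and 11.9 ± 3.47% in anti-PD1 libraries, against 20.4 ± 3.44% in IgG libraries. All 6 antibody-treated libraries, at 8.99 to 15.7%, were below the 3 IgG libraries, at 16.9 to 23.7%. The exact permutation p was 0.1, the smallest possible, for Ctla4 in anti-PD1 against IgG and for Pdcd1 in both comparisons with IgG (0.3 adjusted over 24 tests). How often other genes would separate in this way was not counted on this scale. In CPM, 15.5% of all genes had groups that did not overlap in anti-B7-H3 against IgG. For Ctla4 in anti-B7-H3 against IgG the shares overlapped, with an exact permutation p of 0.6 (0.758 adjusted). Because shares sum to 100%, a higher share of Ctla4 lowers the others.

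The other shares differed in both directions. Tigit made up 12.1 ± 2.83% in anti-B7-H3 libraries and 11.7 ± 1.47% in anti-PD1 libraries, against 19.3 ± 4.24% in IgG libraries, and only the anti-PD1 libraries were all below the IgG libraries. Cd160 made up 20.4 ± 4.51% in anti-B7-H3 libraries, against 8.31 ± 2.43% in anti-PD1 libraries, without overlap, and 11.0 ± 7.43% in IgG libraries. Havcr2 made up 3.16 ± 0.60% in anti-B7-H3 libraries, above every library of the other groups, which were at 1.95 ± 0.26% with anti-PD1 and 1.31 ± 0.66% with IgG. Its share was highest in anti-B7-H3 1, at 3.82%, where the summed receptor TPM was lowest, at 211. For each of these separations of Tigit, Cd160 and Havcr2 the exact permutation p was 0.1 (0.3 adjusted over the 24 tests).

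**Figure D5:**
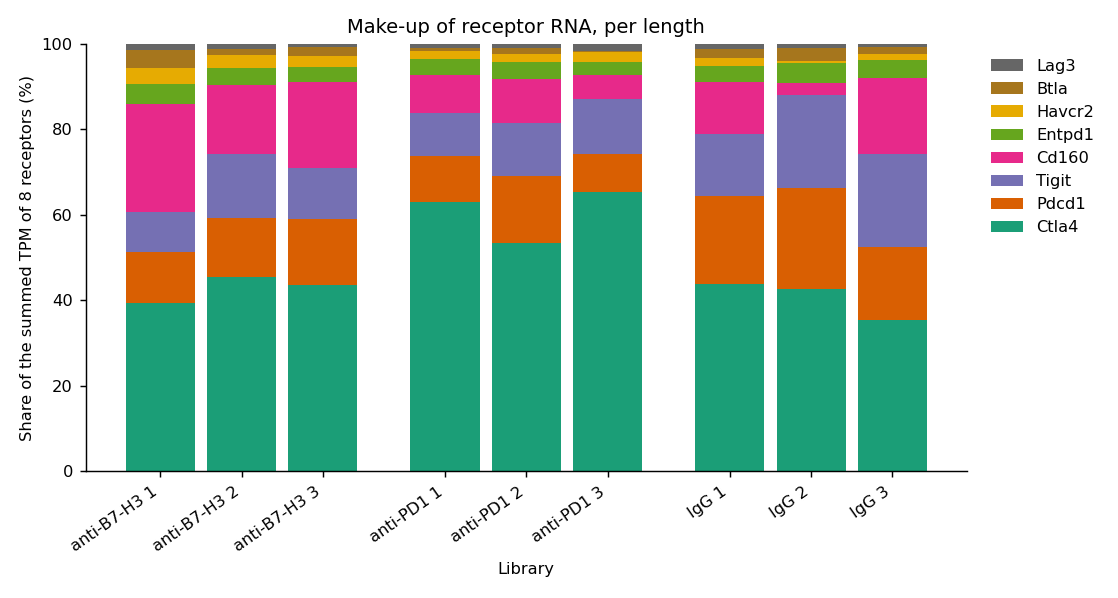
Share of each receptor in the summed TPM of the 8 receptors (stacked bars, percent) in each library. Ctla4 takes 53.5 to 65.4% in the 3 anti-PD1 libraries and 35.5 to 45.5% in the other 6.

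Within Ctla4, nearly all counts fell on the membrane form, Ctla4-201. Ctla4-202, which skips the exon shown in capitals above, took 6.21, 44.6 and 31.1 estimated counts in anti-B7-H3 libraries and 55.9, 86.3 and 71.6 in anti-PD1 libraries, against 6.55, 0 and 0 in IgG libraries. As a share of Ctla4 counts this was 0.371 to 0.571% in anti-B7-H3 libraries and 0.409 to 0.771% in anti-PD1 libraries, against 0 to 0.124% in IgG libraries. Each antibody-treated library was above each IgG library in this share, and no test was made. The part of all transcripts that separates in this way was not counted. Between anti-B7-H3 1 and IgG 1 the separation rested on 6.21 and 6.55 estimated counts. The counts of 0 allow shares of up to 0.0613% in IgG 2 and 0.101% in IgG 3, where 3 counts are taken as the limit. These limits cover counting error only, and the split between transcripts is a model estimate.

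Btla counts were divided between Btla-201 and Btla-202, which differ by the 3 bases shown above. Btla-202 took 39.1 to 55.8% of Btla counts in anti-B7-H3 libraries and 0 to 56.4% in anti-PD1 libraries, against 41.6 to 66.6% in IgG libraries. The share of 0 was in anti-PD1 3, which had 109 Btla counts in all. The forms are 921 and 918 coding bases long, so few reads can tell them apart, and the split is a model estimate. For Cd160, the transcript Cd160-203, which lacks exon 4, took 3.39 to 9.14% in anti-B7-H3 libraries and 2.89 to 6.34% in anti-PD1 libraries, against 0 to 11.4% in IgG libraries. Entpd1 counts fell on Entpd1-201 at shares of 86.0 to 94.1%, and Pdcd1, Lag3 and Tigit each had 1 transcript in the files.

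The ligands of these receptors were measured in the same libraries, as a list of 14 genes of which 13 were tested and Fgl1, a ligand of LAG-3, was too low. In anti-PD1 against IgG, 2 of 13 passed the edgeR test, against 1.74% of all genes, and both were higher, Cd80 and Pdcd1lg2. Cd80, the ligand shared by CTLA-4 and CD28, was at 17.1, 15.9 and 22.8 CPM in anti-PD1 libraries, against 3.81, 6.38 and 3.58 CPM in IgG libraries. It rose by 2.02 ± 0.43 in log2 (edgeR adjusted p = 0.0432). Pdcd1lg2, which encodes the PD-1 ligand PD-L2, was at 14.5, 13.0 and 13.1 CPM in anti-PD1 libraries, against 3.96, 3.90 and 3.89 CPM in IgG libraries, and rose by 1.79 ± 0.38 (edgeR adjusted p = 0.0441). The other PD-1 ligand gene, Cd274, had a log2 fold change of 1.71 in this comparison, with an adjusted p of 0.0592 by edgeR. The median over the 13 ligands was 1.21, beside -0.04 over all genes. DESeq2 called 6 of the 13 higher (Cd80, Pdcd1lg2, Cd274, Lgals3, Nectin2 and Nectin3) and limma-voom 1, Lgals3, so the calls of Cd80 and Pdcd1lg2 were lost under limma-voom.

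In anti-B7-H3 against IgG, 0 of 13 ligands passed by edgeR and 5 had an unadjusted p under 0.05, against 0.850% and 8.81% of all genes. DESeq2 called 2 (Pdcd1lg2 and Nectin2) and limma-voom 0. The smallest p-values were those of Pdcd1lg2, at 11.5, 9.19 and 10.1 CPM in anti-B7-H3 libraries (log2 fold change 1.39, adjusted p = 0.214), and Lgals3, a galectin that binds LAG-3 (0.89, adjusted p = 0.330). Between the antibodies 0 of 13 passed by any of these tools and 2 had an unadjusted p under 0.05, against 3.23% of all genes. These were Cd80 at 4.82, 7.38 and 7.09 CPM in anti-B7-H3 libraries (log2 fold change -1.53) and Cd274 (-0.91). Both were lower in every anti-B7-H3 library than in every anti-PD1 library, as were 6.40% of all genes. Macrophages and neutrophils are known to carry such ligands, and edgeR called markers of both higher in anti-PD1 against IgG, as given above. Between the antibodies 0 of 9 macrophage markers had an unadjusted p under 0.05 and their median log2 fold change was -0.14, and the highest macrophage sum was in anti-B7-H3 1, where Cd80 was at 4.82 CPM. In the same comparison 2 of 5 neutrophil markers had an unadjusted p under 0.05, with a median of -1.05. The part of these cells in the ligand values was not tested.

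Of the 7 activating counterparts of the receptors (Cd28, Icos, Cd226, Tnfrsf9, Tnfrsf4, Tnfrsf18 and Cd27), 0 passed the edgeR, DESeq2 or limma-voom test in any comparison. At an unadjusted edgeR p under 0.05, 3 passed in anti-B7-H3 against IgG, 0 in anti-PD1 against IgG and 4 in anti-B7-H3 against anti-PD1. Of all genes tested, 8.81%, 10.9% and 3.23% did so in these comparisons. In anti-B7-H3 against IgG the smallest p-values were those of Tnfrsf18, which encodes GITR (log2 fold change -0.73, edgeR adjusted p = 0.404), and Tnfrsf4, which encodes OX40 (-0.86, adjusted p = 0.510), both lower in every anti-B7-H3 library. In this comparison 3 of 7 were lower in every library, and 15.5% of all genes had groups that did not overlap. Against anti-PD1 the smallest p-values were those of Icos (-1.46) and Tnfrsf4 (-1.08). Icos, the neighbour of Ctla4, was at 58.5, 130.1 and 144 CPM in anti-B7-H3 libraries and 214, 231 and 474 CPM in anti-PD1 libraries, against 228, 309 and 130 CPM in IgG libraries. Its order of libraries differed from that of Ctla4. For Icos, IgG 2 was above anti-PD1 1 and 2, and IgG 1 was above anti-PD1 1. In anti-PD1 against IgG the smallest p-values were those of Cd226 (-0.42) and Tnfrsf9 (0.44).

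Of 10 other inhibitory receptors, 0 passed the edgeR test in any comparison, and 3, 3 and 1 had an unadjusted p under 0.05 in anti-B7-H3 against IgG, anti-PD1 against IgG and anti-B7-H3 against anti-PD1. Of all genes tested, 8.81%, 10.9% and 3.23% had such a p in these comparisons. Lair1, a collagen receptor, was at 18.1, 21.3 and 19.2 CPM in anti-B7-H3 libraries and 17.6, 22.5 and 15.6 CPM in anti-PD1 libraries, against 8.27, 11.6 and 7.11 CPM in IgG libraries. All 6 antibody-treated libraries were above all IgG libraries, with log2 fold changes of 1.12 and 1.05 (edgeR adjusted p = 0.257 and 0.200). Of all genes, 9.99% were higher in every anti-PD1 library than in every IgG library. In anti-B7-H3 against IgG, 15.5% of all genes had groups that did not overlap, in either direction. The share of genes with the pattern of Lair1 in both comparisons was not counted. DESeq2 called Lair1 higher in both comparisons with IgG and Cd244a in anti-B7-H3 against IgG, and limma-voom called 0. Cd244a had a log2 fold change of 1.24 in anti-B7-H3 against IgG. Cd96, which shares a ligand with Tigit, was at 284, 258 and 243 CPM in anti-B7-H3 libraries and 191, 188 and 212 CPM in anti-PD1 libraries, against 238, 312 and 319 CPM in IgG libraries, with log2 fold changes of -0.56 in anti-PD1 against IgG and 0.41 in anti-B7-H3 against anti-PD1. Cd5 had one of -0.38 in the last comparison.

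Of the 12 signalling molecules that act at or near the tails of these receptors, 0 passed in any comparison by edgeR, DESeq2 or limma-voom. In anti-B7-H3 against IgG, anti-PD1 against IgG and anti-B7-H3 against anti-PD1, 2, 0 and 0 had an unadjusted edgeR p under 0.05. Of all genes tested, 8.81%, 10.9% and 3.23% had such a p. The phosphatase genes Ptpn6 and Ptpn11, which encode SHP-1 and SHP-2, had log2 fold changes of 0.74 and -0.68 in anti-B7-H3 against IgG and of 0.51 and -0.37 in anti-B7-H3 against anti-PD1. In anti-PD1 against IgG the smallest p-values were those of Pag1 (1.17) and Cblb (0.33). Among 8 genes of the extracellular adenosine pathway, in which Entpd1 acts, 0 passed by edgeR, DESeq2 or limma-voom. In the same order 2, 2 and 0 had an unadjusted edgeR p under 0.05, against the shares of all genes just given. Nt5e, which encodes CD73, the next enzyme after CD39, averaged 75.2 CPM in anti-B7-H3 libraries, against 150.4 CPM in IgG libraries (95% interval of the log2 fold change -1.82 to -0.18, edgeR adjusted p = 0.441), and had a log2 fold change of -0.70 in anti-B7-H3 against anti-PD1. The adenosine receptor gene Adora2a had one of 0.50 in anti-PD1 against IgG. Entpd2 had 0 counts in the anti-B7-H3 libraries and averaged 0.292 CPM in anti-PD1 libraries and 0.925 CPM in IgG libraries. Entpd3 was at 0.756, 2.29 and 4.05 CPM in anti-PD1 libraries, against 0.251, 0 and 0 CPM in IgG libraries.

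In the exhaustion programme, a list of 16 genes that includes Tox and Tcf7, 1 gene passed the edgeR test in each comparison with IgG and 0 passed between the antibodies. The gene was Nr4a1, a transcription factor induced by signals from the T cell receptor and also by many stimuli in other cells. It was at 710.1, 1027 and 1377 CPM in anti-B7-H3 libraries and 1467, 1013 and 1450.1 CPM in anti-PD1 libraries, against 352, 307 and 345 CPM in IgG libraries. Nr4a1 rose by 1.63 ± 0.26 in log2 in anti-B7-H3 against IgG (edgeR adjusted p = 0.0150) and by 1.97 ± 0.26 in anti-PD1 against IgG (adjusted p = 0.00382), and DESeq2 and limma-voom called it in both. DESeq2 also called Nr4a2 and Nr4a3 in anti-PD1 against IgG. The median over the list was 0.02 and -0.02 in these comparisons, the same as or close to the 0.02 and -0.04 over all genes. At an unadjusted edgeR p under 0.05, 4 of 16 passed in anti-B7-H3 against IgG, against 8.81% of all genes. In anti-PD1 against IgG 6 of 16 passed, against 10.9% of all genes. There 5 of 16 were higher in every library, against 9.99% of all genes, and 0 were lower in every library. These 5 were Nr4a1, Nr4a2, Nr4a3, Prdm1 (log2 fold change 0.86) and Rgs16 (1.02). Between the antibodies 0 of 16 genes had an unadjusted p under 0.05 and no tool called any. The smallest p-values were those of Tcf7 (log2 fold change 0.58) and Cd101 (-0.52).

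For each receptor other than Cd160 the 3 genes with the most similar pattern were found among 9646 genes of at least 5 CPM, by the mean absolute difference of centred log2 CPM over the 9 libraries. For Ctla4 they were Dgat1 (0.190), Ccr8 (0.205) and Rnase4 (0.216), where Ccr8 is a chemokine receptor of tumour regulatory T cells. Tigit was most like Nsun3 (0.182), Tnfrsf4 (0.192) and Cbll1 (0.194). Pdcd1 was most like Usp48 (0.152), Emsy (0.161) and Aplp1 (0.169), and Lag3 like Tmem158 (0.203), Pde4d (0.216) and Gabpb1 (0.220). The genes nearest to Havcr2 were Selenon (0.158), Gxylt1 (0.170) and Tinf2 (0.215). Btla was most like Tmem242 (0.196), Lrrc40 (0.199) and Fchsd2 (0.226), and Entpd1 like Rnf125 (0.079), Glrx (0.103) and H1f0 (0.113). The receptors' own mean absolute deviation from their mean ran from 0.328 for Entpd1 to 0.593 for Btla, which is the distance a gene with no variation would have.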

How the data were processed

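RNA of CD45+ sorted cells was measured in 9 libraries, 3 per group, made with SMART-Seq v4 cDNA, ribosomal RNA depletion and Nextera XT, per the labels' protocols. The submitters' processing notes name FastQC 0.11.8 and build GRCm38, and the quantifier is not given in the sources used here. Per the file headers, the deposited files hold an estimated count and a TPM for each of 58083 transcripts. TPM was scaled per effective length and per 1000000 transcripts by the authors. Transcripts were matched to GENCODE M21 by identifier, of which 57409 matched and 674 did not, and were summed to 22136 genes. Estimated counts were rounded for the tests.

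edgeR 4.0.16 (R 4.3.3) was run on all 9 libraries with TMM scaling, filterByExpr (13178 genes) and its quasi-likelihood test, with Benjamini-Hochberg adjustment over all genes tested and a threshold of 0.05. CPM was TMM-scaled. The procedure was checked on simulated counts. DESeq2 1.42.0, limma-voom (limma 3.58.1), other scalings and filters, a replicate block and leaving out libraries were the alternatives. Ratios to marker genes and shares were compared by exact two-sided permutation tests, which cannot go below 0.1 with 3 against 3. Sequences were read from the GENCODE M21 coding transcripts.

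The receptors, gene lists and tests were chosen with earlier results of these data known. Named genes were the 8 receptors, list members past the test (up to 4) or else the 2 with the smallest p, the cell type markers and the 3 most similar genes per receptor, which for Cd160 are not reported here. Libraries of equal number did not deviate together (correlations of -0.12 to 0.156), so the numbers were not used as pairs. Libraries of 1 group differed by far more than sampling noise, so all 9 were kept.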

Additional observations from a re-analysis of the deposited data

How the results depend on the processing

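The low receptors rested on few counts in some libraries, 89 for Havcr2 in IgG 2 and 109 for Btla in anti-PD1 3. Libraries of 1 group differed by far more than sampling noise, as given above. The genes called by edgeR numbered 112 in anti-B7-H3 against IgG, 229 in anti-PD1 against IgG and 0 in anti-B7-H3 against anti-PD1. DESeq2 called 393, 660 and 14, limma-voom called 2 in the last comparison, and a fit of only the 6 libraries compared called 44 and 136 in the comparisons with IgG. Leaving out 1 library, or a pair of libraries chosen after seeing the data (IgG 2 with anti-PD1 3, or IgG 2 with anti-B7-H3 1), gave 59 to 144, 113 to 297 and 0 to 1. The receptors called were 0 in every setting except DESeq2, which called 1 in anti-PD1 against IgG and 1 for any difference among the groups, Ctla4 each time. The replicate block, in which libraries share only a number, gave 64 and 127 genes in the comparisons with IgG and 0 receptors. The causes of these moves were not tested.

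Of the receptors' fold changes under alternatives, 454 kept their direction and call, 1 passed the threshold (Ctla4, log2 fold change 1.12, DESeq2) and 25 changed sign, none of them called. Under limma-voom Lag3 was at 0.081 in anti-B7-H3 against IgG, and Havcr2 at 0.15 in anti-B7-H3 against anti-PD1. The other changes of sign came with libraries left out. In anti-B7-H3 against IgG the log2 fold change ran from -0.44 to 0.32 for Ctla4, from -0.49 to 0.27 for Lag3, from -0.66 to 0.11 for Btla and from -0.55 to 0.11 for Entpd1, and was positive without IgG 2 for the first 3 and for Entpd1 without both IgG 2 and anti-B7-H3 1. In anti-PD1 against IgG it ran from -0.58 to 0.052 for Pdcd1, from -0.39 to 0.15 for Tigit and from -0.12 to 0.54 for Cd160, each with the opposite sign without IgG 2. For Havcr2 in anti-B7-H3 against anti-PD1 it ran from -0.35 to 0.087. Without a filter on low counts the median of all genes was 0.16 in anti-B7-H3 against IgG and 0.12 in anti-B7-H3 against anti-PD1.

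Per CD3 RNA, replacing the CD3 chains by 12 pan-T cell genes or CPM by TPM changed no direction, and 17 values changed sign with 1 library left out. In anti-B7-H3 against IgG the log2 difference ran from -1.03 to 0.17 for Pdcd1 and from -1.05 to 0.11 for Tigit, positive without anti-B7-H3 1. It ran from -0.38 to 0.74 for Ctla4, from -0.27 to 0.67 for Lag3 and from -0.47 to 0.50 for Btla, negative without IgG 3, and from -0.40 to 0.45 for Entpd1. In anti-PD1 against IgG it ran from -0.33 to 0.45 for Pdcd1 and from -0.0057 to 0.53 for Tigit, negative without IgG 3 and, for Pdcd1, also without anti-PD1 2, and from -1.11 to 0.10 for Btla, positive without anti-PD1 3. For Havcr2 in anti-B7-H3 against anti-PD1 it ran from -0.48 to 0.18.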
